A study of Mus musculus with 8 samples.

Results

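The interferon-inducible GTPases examined here were Iigp1, Irgm1, Igtp, Tgtp1, Gbp2, Gbp3 and Gbp2b. They were chosen by gene name, and every probe set of the array annotated to them was taken, which gave 8 of 12422 probe sets. Of these, 7 carried 1 gene symbol only. Iigp1 had 2 probe sets, and Tgtp1 was read only by a probe set that is also annotated to its near-identical copy Tgtp2, so that signal cannot be given to either gene alone. All 8 were among the 7453 probe sets bright enough to be tested.

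RNA of whole mouse colon was hybridised to 8 Affymetrix MG_U74Av2 arrays, each carrying RNA pooled at 7 µg per animal from 4 or 5 animals. There were 4 groups of 2 pools: C3H/HeJBir carrying Il10tm1Cgn, wild-type C3H/HeJBir, C57BL/6J carrying Il10tm1Cgn, and wild-type C57BL/6J. Il10tm1Cgn is a germline targeted allele of the gene for interleukin 10, a cytokine that restrains inflammation in the gut, and the lines that carry it are called Il10-null here. The pools of each group were numbered sample 1 and sample 2. A pool averages its animals, so the spread between pools is not the spread between animals. Only the sample 2 pool of wild-type C57BL/6J has an age in its label, which is 4 weeks. Sex, and age elsewhere, were not given in the sources used here.

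Interferon gamma, made mainly by T cells and natural killer cells, binds its receptor and starts a signalling cascade that acts at the GAS and ISRE elements of target promoters. Among the most strongly induced targets in mice are 2 families of GTPases that attack the membranes around microbes inside cells. The immunity-related GTPases (IRG) comprise effectors such as Iigp1 and Tgtp1, which load onto the vacuoles of parasites such as Toxoplasma gondii, and regulators such as Irgm1 and Igtp, which keep the effectors inactive on the cell's own membranes. The guanylate-binding proteins (GBP), here Gbp2, Gbp3 and Gbp2b, coat vacuoles and bacteria and help to start inflammasome signalling.

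The array measured transcripts only, so the promoters show what the members share apart from their expression. RefSeq promoter windows of mouse assembly GRCm38.p6, from 250 bases before to 50 bases after the annotated start, were at hand for 6 of the 7 genes, with 2 windows for Gbp3. They were searched on both strands for an ISRE core, spelled GAAANNGAAA, and for a GAS core, spelled TTCNNNGAA. An ISRE core was found for 6 of 6 genes, while 3.99% of the 27025 genes in the table held one in a window. The first Gbp3 window held it and the second did not. A GAS core was found for Igtp and Tgtp1, against 9.55% of all genes. Irgm1 and Gbp3 each had 2 overlapping ISRE matches. Of 5 other IRG and GBP genes with a window, 4 held an ISRE core (not Ifi47) and 4 a GAS core (Irgm2, Tgtp2, Gbp5 and Gbp7), so neither motif sets the members apart from their families. The stretches around the ISRE matches are shown because each of the 6 genes held one. Capitals mark the ISRE match, on the strand of the gene for the IRG genes and on the opposite strand for the GBP genes, and each stretch is read 5′ to 3′ along the gene.
Irgm1, chr11:48871410-48871475, minus strand: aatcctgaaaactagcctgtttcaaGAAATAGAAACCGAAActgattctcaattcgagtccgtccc
Igtp, chr11:58199497-58199556, plus strand: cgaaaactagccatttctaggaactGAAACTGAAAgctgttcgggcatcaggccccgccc
Tgtp1, chr11:48992289-48992348, minus strand: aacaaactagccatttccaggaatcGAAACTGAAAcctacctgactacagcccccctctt
Gbp2, chr3:142620579-142620638, plus strand: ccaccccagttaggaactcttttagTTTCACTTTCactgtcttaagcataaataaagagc
Gbp3, chr3:142559974-142560039, plus strand: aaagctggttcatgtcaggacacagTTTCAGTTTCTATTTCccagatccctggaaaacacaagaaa
Gbp2b, chr3:142594685-142594744, plus strand: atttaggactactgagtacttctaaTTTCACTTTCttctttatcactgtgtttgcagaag

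The GBP stretches lie in 1 gene cluster. In the RefSeq gene order, Gbp5, Gbp7, Gbp3, Gbp2b and Gbp2 follow each other on chromosome 3, and Irgm1, Tgtp1, Tgtp2 and Igtp lie on chromosome 11. The ISRE core began 137 bases before the start of Gbp2b and 59 bases before that of Gbp2, and both had the same 10 letters, TTTCACTTTC. The assembly is that of C57BL/6J, and C3H/HeJBir sequence was not used here. A match is a description of these letters and not a measured binding site.

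The pools had features that touch every result below. The C3H/HeJBir Il10-null sample 1 pool stood apart, with a mean Spearman correlation to the other arrays of 0.915, against 0.931 to 0.945 for the other 7. Sample number was tied to other variables: the sample 1 pools of both Il10-null lines were hybridised on one day, the sample 1 wild-type pools on another and all 4 sample 2 pools on the remaining one. Xist, expressed in females, read 243 to 452 in sample 1 pools and 2.84 to 12.9 in sample 2 pools. The Il10 probe set read 28.3 and 35.4 in C3H/HeJBir Il10-null pools against 5.43 and 10.9 in wild type, and 51.7 and 22.03 in C57BL/6J Il10-null pools against 9.70 and 7.34 in wild type. It was therefore higher in the pools labelled Il10-null, and since the place of its probes relative to the altered part of the gene was not known here, it does not check the genotype labels. Groups are named as labelled throughout. The epithelial markers Epcam and Krt8 read above 960 on all 8 arrays.

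Iigp1 encodes an IRG effector that oligomerises on parasite vacuoles. Its brighter probe set (96764_at) read 932.0 and 287 in the sample 1 and sample 2 pools of C3H/HeJBir Il10-null, against 71.9 and 155 in C3H/HeJBir wild type. In C57BL/6J it read 163 and 670.0 in Il10-null pools against 44.1 and 49.2 in wild type. Both Il10-null pools lay above both wild-type pools in each strain. The mean intensity was 609.6 ± 456.0 in C3H/HeJBir Il10-null and 114 ± 58.9 in its wild type, a ratio of 5.37, and 417 ± 358 in C57BL/6J Il10-null and 46.7 ± 3.65 in its wild type, a ratio of 8.93 (SD, n = 2 each). On the scale of log2 of the intensity plus 11.07, which understates changes of dim probe sets, the Il10-null minus wild-type difference was 2.17 ± 0.71 in C3H/HeJBir and 2.58 ± 0.71 in C57BL/6J (SE of the limma fit). Neither passed after Benjamini-Hochberg adjustment over the 7453 probe sets in limma (adjusted p = 0.999 in C3H/HeJBir and 0.99997 in C57BL/6J).

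The second Iigp1 probe set (103963_f_at) was dimmer, and its suffix marks a probe set that can read other members of a sequence family. It read 597 and 152 in C3H/HeJBir Il10-null pools against 78.8 and 84.9 in wild type, and 140 and 312 in C57BL/6J Il10-null pools against 23.0 and 5.60 in wild type. The probe sets of Iigp1 ordered the groups alike, and here too the genotypes did not overlap in either strain. The fitted differences were 1.76 ± 0.63 in C3H/HeJBir and 3.21 ± 0.63 in C57BL/6J, which limma did not call.

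The probe set shared by the effectors Tgtp1 and Tgtp2 (102906_at) followed Iigp1. It read 756 and 175 in C3H/HeJBir Il10-null pools against 63.6 and 104 in wild type, and 140 and 315 in C57BL/6J Il10-null pools against 50.3 and 24.7 in wild type. Both Il10-null pools were above both wild-type pools in each strain. The ratio of means was 5.55 in C3H/HeJBir and 6.06 in C57BL/6J, with fitted log2 differences of 2.03 ± 0.66 and 2.24 ± 0.66, and neither passed in limma.

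The IRG regulators showed smaller ratios. Irgm1, whose product keeps effector GTPases off host membranes, read 154 and 43.4 in C3H/HeJBir Il10-null pools against 55.5 and 64.9 in wild type. In C57BL/6J it read 77.2 and 83.4 in Il10-null pools against 25.7 and 27.8 in wild type. The C57BL/6J pools were tight and did not overlap, with a ratio of 3.003 and a log2 difference of 1.27 ± 0.45, whereas in C3H/HeJBir 1 Il10-null pool lay above and the other below both wild-type pools (0.42 ± 0.45).

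Igtp, a regulator of the same class, read 663 and 154 in C3H/HeJBir Il10-null pools against 157 and 179 in wild type. In C57BL/6J it read 96.3 and 201 in Il10-null pools against 69.3 and 39.0 in wild type. As for Irgm1, the genotypes overlapped in C3H/HeJBir and not in C57BL/6J. The log2 difference was 0.90 ± 0.62 in C3H/HeJBir and 1.25 ± 0.62 in C57BL/6J, and for both regulators limma called neither strain.

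Gbp2, which in mice restricts Toxoplasma gondii and coats bacterial surfaces, was the only member whose highest group mean was that of C57BL/6J Il10-null. It read 513 and 176 in C3H/HeJBir Il10-null pools against 199 and 153 in wild type, and 290.6 and 486 in C57BL/6J Il10-null pools against 128 and 107 in wild type. The C57BL/6J genotypes did not overlap, with a ratio of 3.31 and a log2 difference of 1.60 ± 0.47. In C3H/HeJBir they overlapped, with a ratio of 1.96 and a difference of 0.75 ± 0.47.

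Gbp3 is a further member of the chromosome 3 cluster. It read 254 and 104 in C3H/HeJBir Il10-null pools against 175 and 169 in wild type, with the wild-type pools between the Il10-null ones and a log2 difference of -0.07 ± 0.51. In C57BL/6J it read 67.3 and 177 in Il10-null pools against 50.6 and 26.3 in wild type, with no overlap and a difference of 1.34 ± 0.51. Limma called neither.

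**Figure D1:**
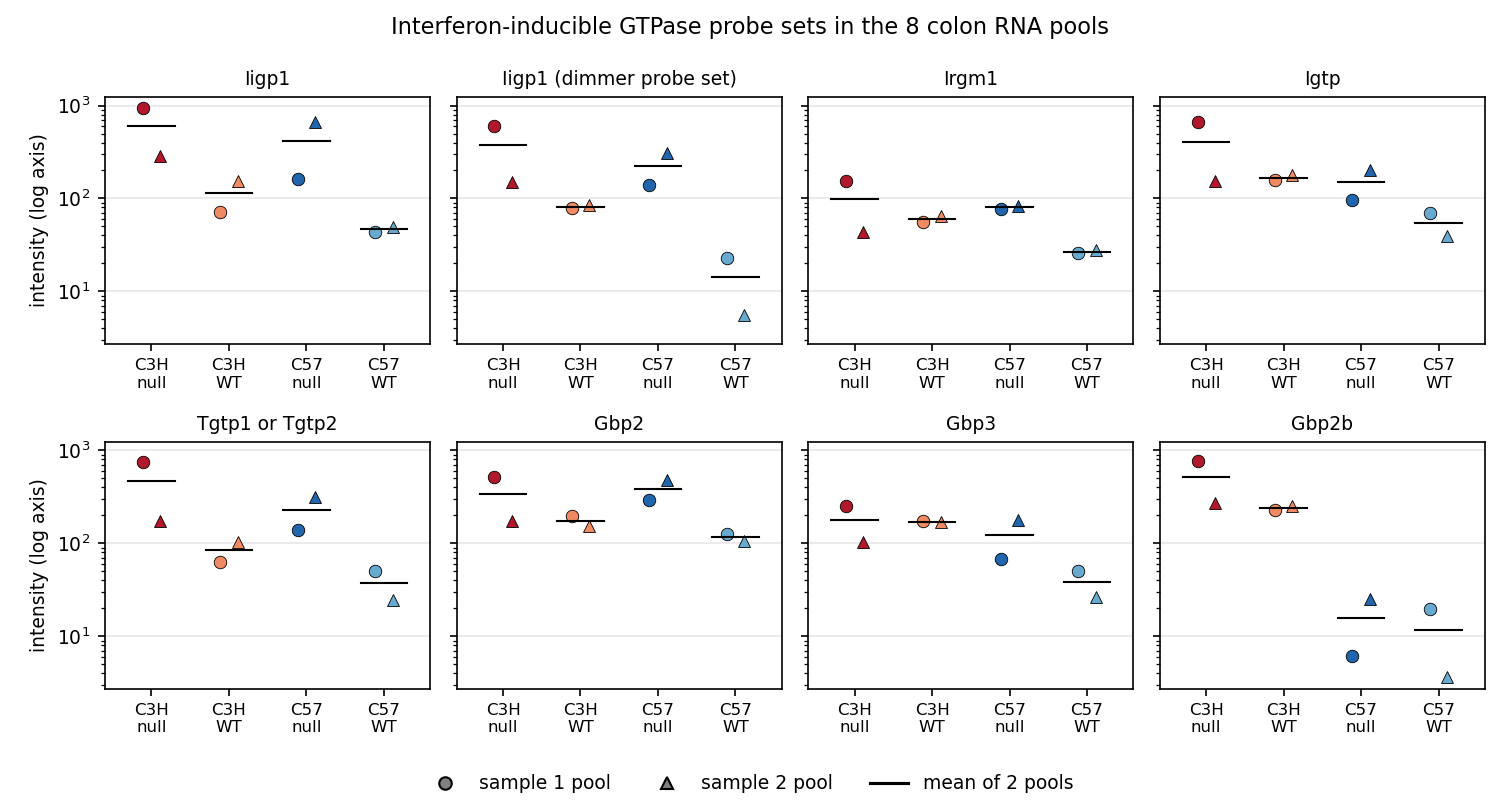
Intensity on a log axis of the 8 GTPase probe sets in each pool, with C57 standing for C57BL/6J, C3H for C3H/HeJBir and null for Il10-null; circles are sample 1, triangles sample 2 and bars the mean of 2 pools. The highest Il10-null pool was sample 1 in C3H/HeJBir and sample 2 in C57BL/6J for all 8 probe sets, and Gbp2b read 25.4 or less in every C57BL/6J pool.

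Gbp2b, earlier called Gbp1, is known for alleles that differ between inbred strains in their response to interferon, and the study itself put it forward from these samples, so its strain difference here is not independent evidence. It read 766 and 272 in C3H/HeJBir Il10-null pools against 6.08 and 25.4 in C57BL/6J Il10-null pools. In wild type it read 229 and 251 in C3H/HeJBir pools against 19.6 and 3.62 in C57BL/6J pools. The strains did not overlap in either genotype. Within its array, each C3H/HeJBir value was at or above those of at least 80.6% of all probe sets, and each C57BL/6J value at or above those of 7.52% to 34.2%.

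The strain difference of Gbp2b, C3H/HeJBir minus C57BL/6J, was 4.23 ± 0.56 log2 units in Il10-null pools (limma adjusted p = 0.0217) and 3.56 ± 0.56 in wild-type pools (limma adjusted p = 0.0468). Mean intensity was 519 ± 349 in C3H/HeJBir against 15.7 ± 13.6 in C57BL/6J among Il10-null pools, and 240.1 ± 15.1 against 11.6 ± 11.3 among wild-type pools (SD, n = 2 each). No fold is given, since the C57BL/6J values lie at the dim end of the array and no detection call was at hand. All 4 C57BL/6J values were under the mean of 37.0 required for testing, so the gene was tested only through its level in C3H/HeJBir. These were the only calls among the members, 1 of 8 in each genotype, and stand beside 0.295% of all probe sets in Il10-null (22 of 7453) and 0.403% in wild type (30 of 7453). Both calls ended with a replicate block on the sample number (adjusted p = 0.0518 in Il10-null and 0.0891 in wild type, limma) and with the hybridisation day as a block (0.143 and 0.203). They ended too with the lower pseudocount (0.0830 and 0.111) and without the filter on dim probe sets (0.0547 and 0.103), and the wild-type call with probe sets averaged per gene (0.0603). The Il10-null call ended without the C3H/HeJBir Il10-null sample 1 pool, at a difference of 3.50. It ended without either C57BL/6J Il10-null pool, at 3.69 without sample 1 and 4.77 without sample 2. It also ended without either C3H/HeJBir wild-type pool, though the difference stayed at 4.23 and only its SE and p-value changed. The wild-type call held without either C3H/HeJBir Il10-null pool and ended without any other pool. Its difference stayed at 3.56 without a C57BL/6J Il10-null pool, and ran from 3.03 to 4.09 without a wild-type pool. The direction was the same under all 18 alternatives, from 2.86 to 4.96 in Il10-null and from 2.13 to 4.35 in wild type. Probe sequences and C3H/HeJBir sequence were not used here, so a lower transcript level in C57BL/6J and a poorer match of the probes to that strain's transcript cannot be told apart.

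The question put by the Il10 comparison is whether the colon expresses these genes differently when interleukin 10 is absent. No member passed in either strain. In C3H/HeJBir 0 of 8 passed, beside 0.0134% of all probe sets (1 of 7453), and in C57BL/6J 0 of 8 passed, beside 0% (0 of 7453, limma with Benjamini-Hochberg). At an unadjusted p under 0.05 with a positive difference, 3 of 8 members were counted in C3H/HeJBir, both Iigp1 probe sets and that of Tgtp1 and Tgtp2, beside 1.45% of all. In C57BL/6J 6 of 8 were counted, all but Igtp and Gbp2b, beside 0.886%. Both Il10-null pools lay above both wild-type pools for 4 of 8 in C3H/HeJBir, beside 11.3% of all, and for 7 of 8 in C57BL/6J, beside 12.6%. The median member difference was 0.90 log2 units in C3H/HeJBir and 1.47 in C57BL/6J, while the median over all probe sets was -0.01 in both.

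Averaged over the strains, the Il10-null minus wild-type difference was largest for Iigp1, at 2.38 ± 0.50 on the brighter and 2.49 ± 0.45 on the dimmer probe set, and smallest for Gbp2b, at 0.57 ± 0.39. None of the 8 passed, beside 0% of all probe sets (0 of 7453), and the smallest member adjusted p was 0.723, for the dimmer Iigp1 probe set (limma). At an unadjusted p under 0.05 with a positive difference 6 of 8 were counted, all but Gbp3 and Gbp2b, beside 1.76% of all. Without the C3H/HeJBir Il10-null sample 2 pool, the difference of the dimmer Iigp1 probe set was 2.96. The sample 1 pool, which stood apart from the other arrays, was then the only C3H/HeJBir Il10-null pool.

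The size of these differences rested in part on single pools. Without the C3H/HeJBir Il10-null sample 1 pool, the C3H/HeJBir difference of Iigp1 was 1.34 and that of the Tgtp1 and Tgtp2 probe set 1.01. Those of Irgm1, Igtp and Gbp3 were then -0.38, -0.11 and -0.67, and that of Gbp2 was 0.01. Without the C57BL/6J Il10-null sample 2 pool, the C57BL/6J difference remained above 0 for the 7 probe sets other than Gbp2b, from 0.71 for Gbp3 to 2.66 for the dimmer Iigp1 probe set. For Gbp2b it was then -0.31.

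**Figure D2:**
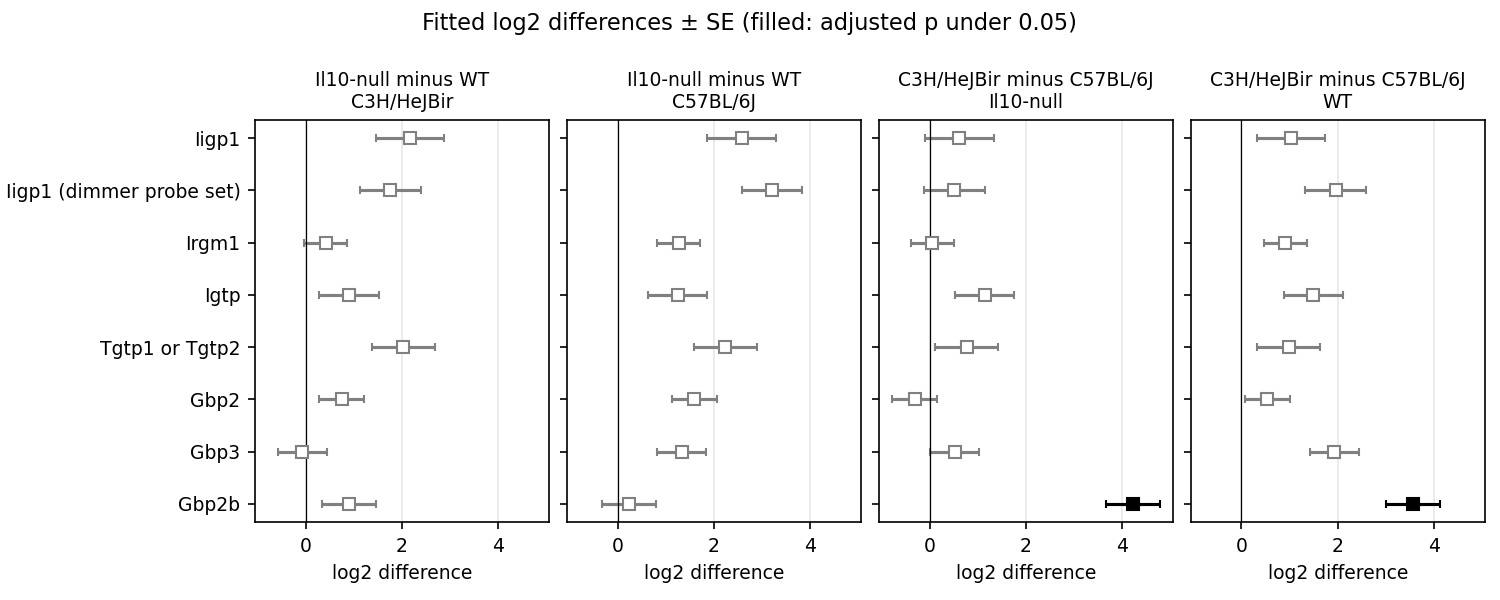
Fitted log2 differences, with the SE from limma as bars, for each probe set, for Il10-null minus wild type in each strain and for C3H/HeJBir minus C57BL/6J in each genotype; filled squares passed the adjusted threshold. The only filled squares are those of Gbp2b, at 4.23 in Il10-null and 3.56 in wild type.

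The Il10 effects of the strains were compared by the difference of the differences. It was negative for 7 of 8 probe sets, from -1.45 ± 0.89 for the dimmer Iigp1 probe set to -0.22 ± 0.93 for that of Tgtp1 and Tgtp2, and positive for Gbp2b, at 0.67 ± 0.79. For Gbp3 it was -1.41 ± 0.72 (unadjusted p = 0.0859). None of the 8 passed in limma, beside 0% of all probe sets (0 of 7453). At an unadjusted p under 0.05, 0 of 8 were counted in either direction, beside 112 of 7453. With a positive difference 0 of 8 were counted, beside 0.698%. A difference between the strains in the response of these genes to the loss of Il10 was therefore not detectable with 2 pools a group.

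In wild-type colon the members were higher in C3H/HeJBir than in C57BL/6J throughout. Both C3H/HeJBir pools lay above both C57BL/6J pools for 8 of 8 probe sets, beside 14% of all. The largest difference after Gbp2b was that of the dimmer Iigp1 probe set, at 1.96 ± 0.63, followed by Gbp3 at 1.93 ± 0.51, Igtp at 1.49 ± 0.62 and Iigp1 at 1.03 ± 0.71. Gbp2 had the smallest, at 0.54 ± 0.47. At an unadjusted p under 0.05 with a positive difference 4 of 8 were counted, beside 2.62% of all, and of these only Gbp2b passed the adjusted threshold. The median member difference was 1.26 log2 units, against -0.02 over all probe sets.

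In Il10-null colon that pattern was not seen. Both C3H/HeJBir pools lay above both C57BL/6J pools for Gbp2b only, 1 of 8, beside 11.9% of all probe sets. At an unadjusted p under 0.05 with a positive difference Gbp2b was again the only member counted, beside 2.03% of all. The median member difference was 0.57, and the values ran from -0.31 ± 0.47 for Gbp2 to 1.14 ± 0.62 for Igtp among the other 7 probe sets.

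The groups therefore had no single order for the members. Wild-type C57BL/6J had the lowest mean for 8 of 8 probe sets. For Iigp1 the order was C3H/HeJBir Il10-null, C57BL/6J Il10-null, C3H/HeJBir wild type and C57BL/6J wild type, in which only the first pair of neighbours overlapped, and the Tgtp1 and Tgtp2 probe set had the same order and the same overlap. Irgm1 had this order too, with the first pair overlapping. For Igtp and Gbp3, C3H/HeJBir wild type stood above C57BL/6J Il10-null, and only C57BL/6J wild type was free of overlap with its neighbour. Gbp2 began with C57BL/6J Il10-null, followed by both C3H/HeJBir groups, and again only C57BL/6J wild type stood free. For Gbp2b both C3H/HeJBir groups stood above both C57BL/6J groups, and only the C57BL/6J genotypes overlapped.

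Pools of the same sample number were also compared directly. The Il10-null minus wild-type differences in C3H/HeJBir were positive for 8 of 8 probe sets in sample 1, with a median of 1.85 log2 units, and for 5 of 8 in sample 2, with a median of 0.15. In C57BL/6J they were positive for 7 of 8 in sample 1, with a median of 1.19, and for 8 of 8 in sample 2, with a median of 2.21. The larger difference was thus in sample 1 for C3H/HeJBir and in sample 2 for C57BL/6J. Over all probe sets these medians ran from -0.04 to 0.02. Only in sample 2 were both genotypes hybridised on the same day, and there Irgm1, Igtp and Gbp3 differed by -0.48, -0.20 and -0.65 in C3H/HeJBir, and by 1.28, 2.08 and 2.33 in C57BL/6J.

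The strain differences within a number, where both strains were hybridised on the same day, split by genotype. In wild type, C3H/HeJBir was above C57BL/6J for 8 of 8 probe sets in sample 1 and for 8 of 8 in sample 2, with medians of 0.96 and 1.81. In Il10-null pools it was above for 8 of 8 in sample 1, with a median of 2.18, and for 1 of 8 in sample 2, with a median of -0.80. The exception in sample 2 was Gbp2b, at 2.96. The direction of the Il10-null strain difference thus depended on the sample number for every probe set other than that of Gbp2b.

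**Figure D3:**
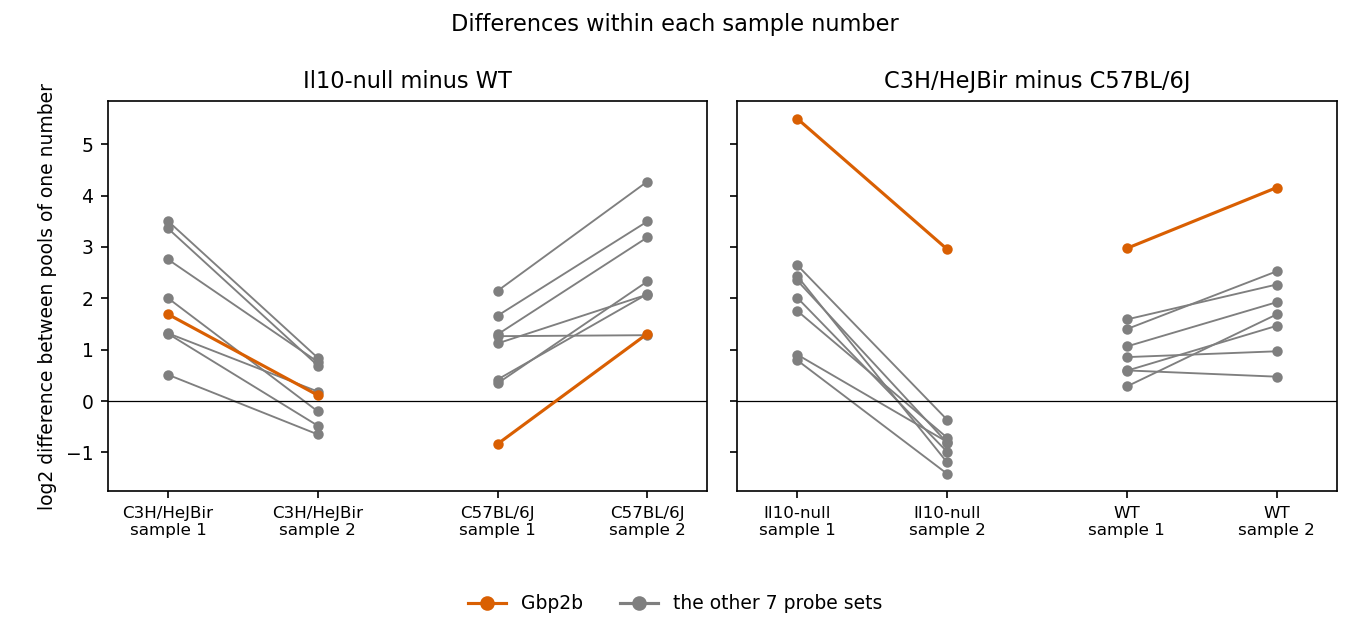
Log2 differences between pools of one sample number for the 8 probe sets, Il10-null minus wild type on the left and C3H/HeJBir minus C57BL/6J on the right; each line joins the sample 1 and sample 2 values of a probe set. In Il10-null pools the 7 grey lines cross 0 between the sample numbers, while Gbp2b stays at 2.96 or above in all 4 strain differences.

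Gbp2b differed from its neighbours on the chromosome. The 4 tested genes of the cluster are Gbp7, Gbp3, Gbp2b and Gbp2 in their order, and the strain differences of Gbp2b ran from 2.96 to 5.50 over the genotypes and sample numbers. Those of Gbp3 ran from -0.71 to 2.27 and those of Gbp2, the gene next to Gbp2b, from -1.41 to 0.80. Those of Gbp7 ran from -0.26 to 1.62. In each of the 4 comparisons the value of Gbp2b was above those of the other 3 genes. These are the same Gbp2b values that gave its strain calls, so they add no independent evidence. The limits given above, dim C57BL/6J signal and an unknown match of the probes to each strain, hold here too.

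**Figure D4:**
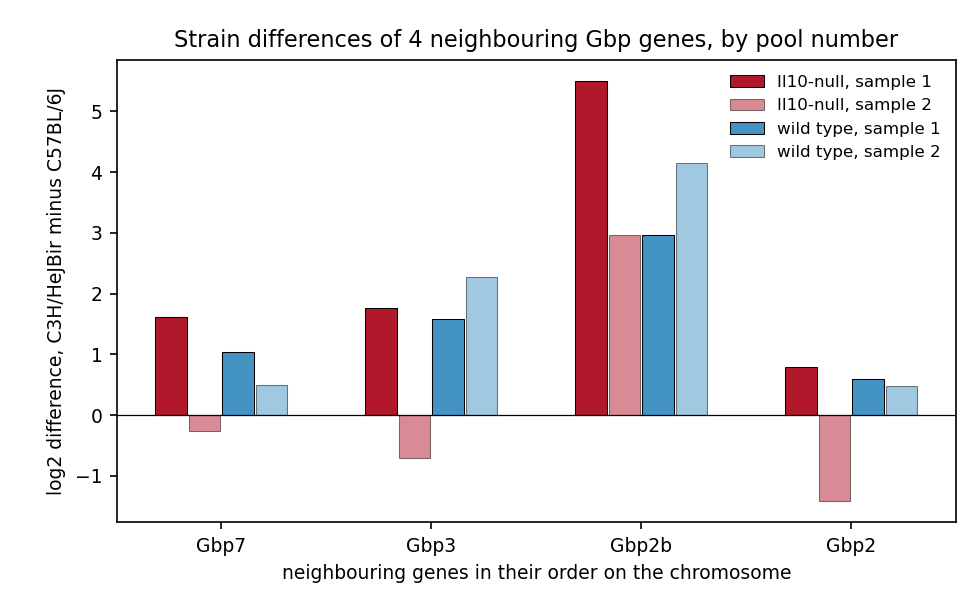
Bars from 0 show the log2 difference C3H/HeJBir minus C57BL/6J for 4 neighbouring Gbp genes, in red for Il10-null and blue for wild-type pools, with sample 2 paler. Gbp2b bars reach 2.96 to 5.50, while Gbp7, Gbp3 and Gbp2 are below 0 in the Il10-null sample 2 pools.

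The members other than Gbp2b moved together over the pools, and Gbp2b followed most of them less closely. Across the 8 arrays, which share strain, genotype and sample number, Pearson's r of log2 values between pairs of the other 7 probe sets ran from 0.69 to 0.97 over 21 pairs, with a median of 0.89. Without the C3H/HeJBir Il10-null sample 1 pool it ran from 0.57 to 0.97, with a median of 0.79. The 7 pairs with Gbp2b had r from 0.28 to 0.81 and a median of 0.54, and without that pool from -0.08 to 0.71 and a median of 0.23. Over the 8 arrays, the pairs of Gbp2b with Igtp (0.81) and Gbp3 (0.79) lay inside the range of the other pairs. That with Gbp2 (0.28) was the lowest. These values describe 8 arrays and were not tested.

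The mean profile of Iigp1, Irgm1, Igtp, Gbp2 and Gbp3, the members with a probe set of their own other than Gbp2b, was taken as each gene's log2 value less its mean over the arrays. It stood at 1.61 and 0.02 in C3H/HeJBir Il10-null pools against -0.12 and 0.08 in wild type, and at -0.10 and 0.91 in C57BL/6J Il10-null pools against -1.06 and -1.34 in wild type. Among 5682 genes outside the set, those with the highest r to this profile over the 8 arrays were H2-DMa (0.974), Psmb8 (0.964), Psmb9 (0.964), B2m (0.960) and Sema4d (0.951). H2-DMa helps to load peptides onto class II molecules, Psmb8 and Psmb9 are subunits of the immunoproteasome, B2m is the light chain of class I molecules, and Sema4d is a semaphorin. Without the C3H/HeJBir Il10-null sample 1 pool, r was 0.907 to 0.952 for these genes.

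Gbp2b had another set of most similar genes. They were Pla2g2a (0.992), a secreted phospholipase, Slpi (0.979), a protease inhibitor of mucosal surfaces, Cd14 (0.978), a coreceptor for lipopolysaccharide, Tnfsf10 (0.975), a death ligand, and Mmp7 (0.971), a matrix protease that processes defensins in mice. Pla2g2a read 5446 and 1283 in C3H/HeJBir Il10-null pools against 21.1 and 44.9 in C57BL/6J Il10-null pools, and 2013 and 1172 in C3H/HeJBir wild-type pools against 44.3 and 6.38 in C57BL/6J wild-type pools. The strains stood apart on this gene in both genotypes, which follows from its choice by likeness to Gbp2b. Its C57BL/6J values were dim, as were those of Gbp2b. Without the C3H/HeJBir Il10-null sample 1 pool, r was 0.964 to 0.990 for the 5 genes.

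Of the other IRG and GBP genes, 3 of 22 were tested, and 0 of the 3 passed in any comparison, nor were any counted at an unadjusted p under 0.05 for Il10 in 1 strain (limma). Ifi47, an IRG of the clustered group, had Il10-null minus wild-type differences of 0.99 ± 0.68 in C3H/HeJBir and 1.27 ± 0.68 in C57BL/6J. Irgm2, a regulator beside Igtp on chromosome 11, had 0.37 ± 0.47 and 0.86 ± 0.47, and Gbp7 had 0.45 ± 0.41 and 0.54 ± 0.41, in that order of strains. All 3 were also higher in wild-type C3H/HeJBir than in wild-type C57BL/6J, by a median of 0.77. For the Mx and other dynamin-family GTPases, 6 of 12 were tested and 0 passed, with 0 counted at an unadjusted p under 0.05 for Il10 in either strain and median Il10-null differences of -0.18 in C3H/HeJBir and 0.01 in C57BL/6J.

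Upstream of these genes, Ifng itself read 1.2 to 4.72 on all 8 arrays, too dim to be tested. Of its receptors and the cytokines that induce it, 5 of 14 were tested and 0 passed in limma, with 0 counted at an unadjusted p under 0.05 for Il10 in either strain. Ifngr1, the ligand-binding chain of the receptor, read 337 and 272 in C3H/HeJBir Il10-null pools against 332 and 337 in wild type, and 382 and 353 in C57BL/6J Il10-null pools against 339 and 298 in wild type. These values lie close to each other in all groups. Of the signalling molecules and transcription factors 13 of 19 were tested and 0 passed in limma, while at an unadjusted p under 0.05 for Il10 1 was counted as higher and 1 as lower in C3H/HeJBir and 0 in C57BL/6J. Over all probe sets, 1.45% were so counted as higher and 1.38% as lower in C3H/HeJBir, and 0.886% as higher in C57BL/6J. Irf1, the factor that drives many of these promoters, had differences of 0.51 ± 0.34 in C3H/HeJBir and 0.38 ± 0.34 in C57BL/6J, and Socs3, a feedback inhibitor of cytokine signalling, 1.79 ± 0.69 and 0.67 ± 0.69. Irf9, which joins the complex that binds the ISRE after type I interferon, was the gene counted as lower, with -0.82 ± 0.27 in C3H/HeJBir and 0.26 ± 0.27 in C57BL/6J, and Irf7 had -0.58 ± 0.30 and -0.46 ± 0.30.

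Other genes known to be induced by interferon gamma had differences of the same sign in most cases. Of 22 tested, 21 were higher in Il10-null than in wild type in C3H/HeJBir and 19 in C57BL/6J, with medians of 0.75 and 0.98 log2 units, and 0 passed in limma, while 6 and 5 were counted as higher at an unadjusted p under 0.05. Over all probe sets, 48.5% and 48.9% were higher and 1.45% and 0.886% were so counted. Ido1, which degrades tryptophan, read 370 and 80.2 in C3H/HeJBir Il10-null pools against 44.4 and 47.0 in wild type, and 118 and 206 in C57BL/6J Il10-null pools against 26.3 and 17.9 in wild type. Cd74, the invariant chain of class II molecules, had differences of 1.62 ± 0.58 in C3H/HeJBir and 1.78 ± 0.58 in C57BL/6J. Like the GTPases, Ido1 was highest in the C3H/HeJBir Il10-null sample 1 pool, and its genotypes did not overlap in either strain.

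Genes known to be induced by type I interferon gave other values. Of 11 tested, 1 was higher in Il10-null than in wild type in C3H/HeJBir and 9 in C57BL/6J, with medians of -0.57 and 0.17. None passed in limma for Il10, and 3 (Isg15, Ifi27l2a and Ifit1) were counted as lower at an unadjusted p under 0.05 in C3H/HeJBir, beside 1.38% of all probe sets. In wild type, 11 of 11 were higher in C3H/HeJBir than in C57BL/6J, with a median of 1.36, 7 counted as higher at an unadjusted p under 0.05, beside 2.62% of all, and 0 passing. Isg15, a ubiquitin-like modifier, read 513 and 118 in C3H/HeJBir Il10-null pools against 773 and 624 in wild type, and 156 and 260.1 in C57BL/6J Il10-null pools against 119 and 159 in wild type. Its levels in C3H/HeJBir were therefore lower in the Il10-null pools, the reverse of those of Iigp1. The autophagy conjugation genes, whose products place IRG and GBP proteins on membranes, had medians of -0.07 in C3H/HeJBir and -0.18 in C57BL/6J with 0 of 11 passing and 0 counted at an unadjusted p under 0.05.

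Markers of other cell types moved with some pools. In whole colon, fewer cells of a type and less RNA per cell cannot be told apart. The C3H/HeJBir Il10-null sample 1 pool, highest for all 8 probe sets, had a summed intensity of the 10 neutrophil markers of 1054, against 301 to 447 in the other 7 pools. Most of it came from S100a8 and S100a9, subunits of calprotectin, at 581 and 173 against 9.53 to 35.0 and 1.83 to 9.74. Without them the other 8 markers summed to 300.3, against 262 to 420.2, and the brightest of these, Csf3r, was lowest in this pool at 59.7. The rest of the neutrophil list was split. Ltf read 82.5 in this pool against 15.4 to 35.3, and Camp 94.7 against 17.4 to 52.8. Mmp8 and Mmp9 were also highest in it but dim, at 8.56 and 12.8. Cxcr2, Ngp and Elane lay inside the range of the other pools. The median log2 deviation of the 10 markers was 0.28, against -0.29 to 0.09 in the other pools. The 11 T and NK cell markers of this pool summed to 493, against 263 to 379. Their median log2 deviation was 0.35, against -0.24 to 0.16. Only 3 of the 11 were bright enough to be tested, and all 3 were highest in this pool. Cd4 read 147 against 53.2 to 119, Gzma 75.8 against 18.8 to 54.5, and Gzmb 76.6 against 21.0 to 57.2. The CD3 chains were too dim to be tested and differed among themselves. Cd3e read 23.0 against 8.66 to 14.8, Cd3d 21.0 against 7.82 to 36.2, and Cd3g 19.3 against 26.3 to 48.0. Its 12 macrophage and monocyte markers summed to 8352, against 4262 to 7142, of which Cd14, a gene that followed the strain like Gbp2b, made up 3830. Without Cd14 the sum was 4522, inside the range of 3847 to 4816 of the other pools, and the median log2 deviation of the list was 0.12, against -0.20 to 0.14. Much of that sum was Ctss, at 2756 against 2400 to 3596. Lyz2, C1qa and Adgre1 were highest in this pool, at 516 against 105 to 401, 438 against 259 to 423 and 47.8 against 7.93 to 31.0. Cd68 and C1qc were lowest in it, at 27.8 against 43.5 to 69.5 and 276 against 282 to 402. The macrophage list was therefore mixed in this pool. The exocrine pancreas markers of this pool had a median log2 deviation of 1.87, against -1.06 to 1.24 in the other pools. The 2 pools with the highest GTPase profile, at 1.61 and 0.91, also had the lowest smooth muscle values, at -0.53 and -0.24, and the lowest fibroblast values, at -0.60 and -0.34. In the C57BL/6J Il10-null sample 2 pool, S100a8 read 23.6 and the T and NK cell markers summed to 270.4, inside the range of the other pools. The colon epithelium markers differed little, from -0.12 to 0.12. The part of these cell types in the GTPase values was not tested.

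**Figure D5:**
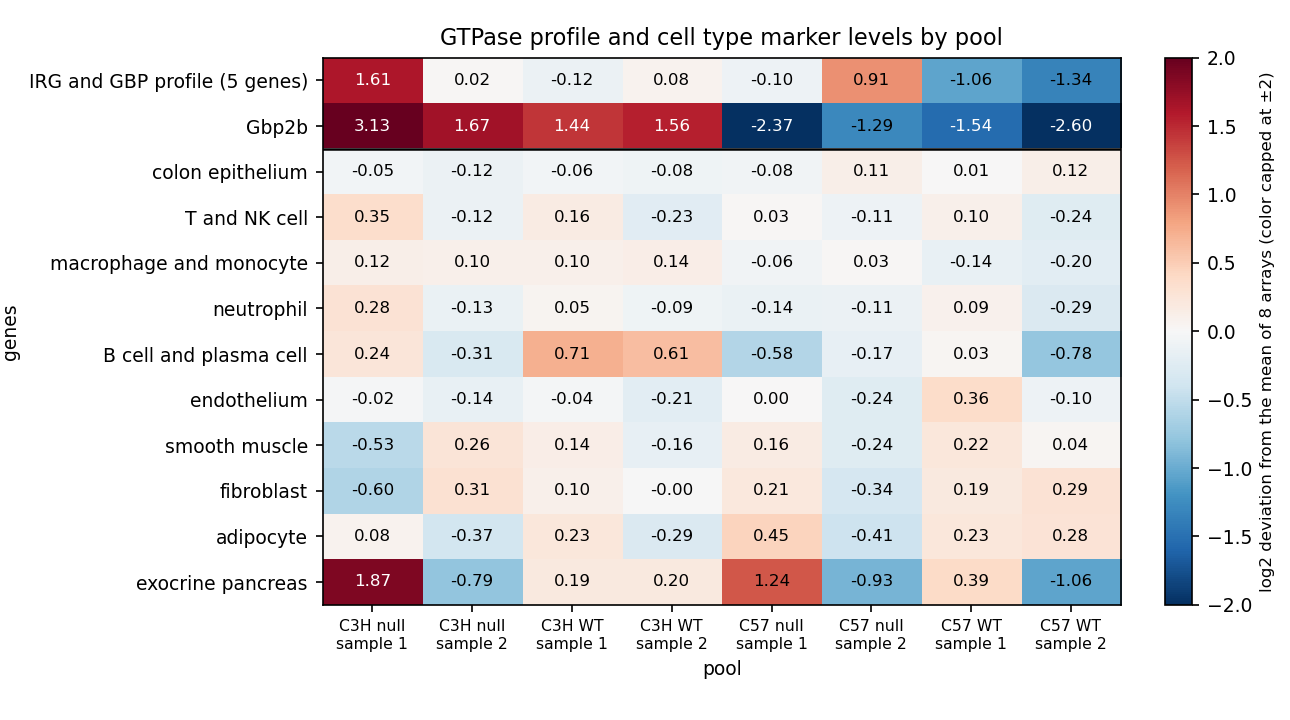
Log2 deviation from the mean of the 8 arrays, printed in each cell and coded in color, for the mean profile of 5 GTPases, for Gbp2b and for the median of each cell type's markers, with one column per pool. The GTPase profile is highest, at 1.61 and 0.91, in the columns where smooth muscle (-0.53 and -0.24) and fibroblast markers (-0.60 and -0.34) are lowest, and Gbp2b follows the strain.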

How the data were processed

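The authors deposited 1 linear intensity per probe set and array. Trimmed means (2%) of the arrays agreed within a ratio of 1.01, so the values already shared a scale and were not rescaled. Array medians were 50.1 to 62.2, and precision is limited by there being 8 arrays. How the intensities were summarised and background-corrected: not given in the sources used here, nor were detection calls. Hybridisation days were read from the deposited experiment files. Probe sets were named from the platform annotation, in which 10833 carried 1 symbol, 396 several and 1193 none, and of the first 10817 matched RefSeq GRCm38.p6. Where a gene had several probe sets, the brightest on average stood for it and the others were given too.

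A pseudocount of 11.07 was added to the intensities before log2 (20th percentile). Probe sets with a mean of at least 37.0 (40th percentile) were tested. Group means were modelled without a block in limma 3.58.1 (R 4.3.3, lmFit and eBayes), which gave 6 comparisons, two-sided, adjusted by Benjamini-Hochberg over all 7453 probe sets with a threshold of 0.05. The fit was tested on simulated data. The p-values rest on the spread between pools. C57BL/6J was subtracted from C3H/HeJBir in strain differences.

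Same-numbered pools deviated together (r = 0.198 to 0.332 over the 6 pairs of groups, across probe sets), so the sample number served as a block in an alternative. Alternatives also changed the pseudocount, the filter, the normalization, the moderation, the block on the day and the averaging of probe sets, or left out each pool. The members and gene lists were chosen with earlier results of these data known. Named from the lists were Ifng, Irf1, Il10, members with the largest differences and, by likeness, the 5 genes with the highest r. Ifngr1, Isg15, Ifi27l2a, Ifit1, Irf7, Irf9, Irgm2, Gbp7, Pla2g2a's levels and the marker genes shown with values were chosen after their values were seen.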

Additional observations from a re-analysis of the deposited data

How the results depend on the processing

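Of 852 recomputed member differences, 803 kept their direction and their side of the threshold, 20 were no longer called, 1 became called and 28 changed direction; with 2 pools a group, most were not called to begin with. The C57BL/6J Il10 comparison called 1 probe set of the whole array with the pseudocount at the 50th percentile, with the filter at the 60th and with trend and robust moderation, against 0. The C3H/HeJBir Il10 comparison called 0, against 1, with the pseudocount at the 5th percentile, without a filter, after scaling to a common median, with the day block and with probe sets averaged, and 0 to 7 without single pools. In Il10-null the strain comparison called 45 with the high pseudocount, 14 without a filter, 45 with trend and robust moderation, 6 with the day block and 14 with averaging, against 22, and 4 to 34 without single pools. In wild type it called 53 with the high pseudocount and 51 with trend and robust moderation, against 30, and 2 to 39 without single pools. The GTPase count of 1, Gbp2b, was 0 in both strain comparisons with the low pseudocount, without a filter, with the replicate block and with the day block, and in wild type also with averaging; without single pools it was 0 to 1 in each. Why these counts changed was not tested. The average Il10 effect called 0 to 11 probe sets and 0 to 1 GTPases without single pools.

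The replicate block changed no member's call other than those of Gbp2b. With the day block the C3H/HeJBir Il10 difference was -0.027 for Irgm1 and 0.14 for Gbp3. Each day of the sample 1 pools held 1 genotype only, so this block takes the average Il10 effect from the sample 2 pools alone. With the high pseudocount the difference of Il10 effects was 0.11 for the Tgtp1 and Tgtp2 probe set, and the cause of that was not tested. Directions also turned without single pools. The Il10 difference then ran from -0.38 to 1.22 for Irgm1, from -0.11 to 1.92 for Igtp and from -0.67 to 0.53 for Gbp3 in C3H/HeJBir, and from -0.31 to 0.78 for Gbp2b in C57BL/6J. The difference of Il10 effects ran from -1.39 to 0.58 for Iigp1, from -1.36 to 0.66 for Igtp, from -1.24 to 0.81 for the Tgtp1 and Tgtp2 probe set and from -0.061 to 1.39 for Gbp2b. The strain difference in Il10-null ran from -0.36 to 1.60 for Iigp1, from -0.44 to 1.46 for its dimmer probe set, from -0.74 to 0.86 for Irgm1, from -0.25 to 1.79 for the Tgtp1 and Tgtp2 probe set, from -1.05 to 0.44 for Gbp2 and from -0.11 to 1.15 for Gbp3. Dim signal limits Gbp2b in C57BL/6J and the dimmer Iigp1 probe set in wild-type C57BL/6J.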
